A study of Rattus norvegicus with 7 samples.

Results

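The genes described here are 10 members of the AP-1 and immediate early group, namely the AP-1 subunit genes Fos, Fosb, Fosl1, Fosl2, Jun, Junb, Jund and Atf3 with the early response genes Egr1 and Ier3. They were chosen by symbol, and 8 of the 10 were found in both deposited tables, out of 17246 genes in each; Fosl2 and Junb were not analysed here. All 8 passed the low-count filter and were tested. RNA sequencing was done on meibomian glands, the holocrine lipid glands of the eyelid, of wild-type female Sprague-Dawley rats aged 3 months. The 4 control libraries came from rats listed as without treatment, and the 3 UVB libraries from rats whose shaved upper lids received ultraviolet B light at 300 mJ/cm2, in 5 min per day on 5 days. Whether controls were shaved, how long after the last exposure the glands were taken, and whether each library is a separate animal are not given in the sources used here, so p-values measure the spread between these libraries, which may in part be technical. Library totals ran from 20680237 to 28784941 counts.

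AP-1 is a dimer of basic leucine zipper (bZIP) proteins. Fos proteins pair with Jun proteins, which can also pair with each other, and the dimers bind short DNA elements known as TRE and CRE. Immediate early genes such as Fos, Fosb, Egr1 and Atf3 are switched on within minutes by stress and growth factor kinases, and their transcripts are short-lived, whereas Fosl1 transcripts are known to follow later and to last longer. In skin, UVB activates these kinases, and AP-1 is known for its part in wound responses and in expression of matrix proteases.

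Promoter sequences are shown for 3 members that stood for different patterns in these libraries: Egr1, which varied widely between libraries, Fosl1, the member that passed the test, and Jund, one of the steadier genes. Each is the 250 bases before the start of the gene in RefSeq, assembly GRCr8, written 5′ to 3′ on the gene's own strand. Capitals mark every match, on either strand, to a TRE (TGANTCA), a CRE (TGACGTCA), a CRE core (TGACG, also part of the CRE), a CArG box (the serum response factor element), a TATA box (TATAAA) or an EGR site (GCGNGGGCG). The windows are Egr1 at chr18:26736828-26737077 (plus strand), Fosl1 at chr1:212183635-212183884 (plus strand) and Jund at chr16:18769772-18770021 (minus strand). The submitters' processing notes name another build, rn7, so these positions belong to GRCr8 only.
Egr1: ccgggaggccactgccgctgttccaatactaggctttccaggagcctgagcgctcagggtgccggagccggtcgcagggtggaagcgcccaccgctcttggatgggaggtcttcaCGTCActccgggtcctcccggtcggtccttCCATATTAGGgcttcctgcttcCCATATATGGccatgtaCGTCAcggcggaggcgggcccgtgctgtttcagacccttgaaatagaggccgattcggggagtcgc
Fosl1: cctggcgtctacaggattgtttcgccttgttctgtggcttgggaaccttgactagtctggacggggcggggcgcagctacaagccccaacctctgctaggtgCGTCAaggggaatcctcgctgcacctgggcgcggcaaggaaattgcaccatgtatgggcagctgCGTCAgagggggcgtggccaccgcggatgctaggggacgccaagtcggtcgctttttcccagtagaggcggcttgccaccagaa
Jund: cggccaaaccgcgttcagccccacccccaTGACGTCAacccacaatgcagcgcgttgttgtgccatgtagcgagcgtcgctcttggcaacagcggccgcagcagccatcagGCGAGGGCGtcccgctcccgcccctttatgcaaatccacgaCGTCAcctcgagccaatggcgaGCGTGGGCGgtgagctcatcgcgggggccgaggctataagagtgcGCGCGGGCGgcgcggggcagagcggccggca
The Egr1 window held 2 CArG boxes, a motif found in 1.5% of 33469 RefSeq rat promoter windows of the same length. It also held 2 CRE cores, a motif found in 18.2% of windows. The Fosl1 window held 2 CRE cores and none of the other motifs. The Jund window held 1 full CRE, found in 1.59% of windows, 1 further CRE core outside it, and 3 EGR sites, a motif found in 4.29%. None of the 3 windows held a TRE (6.34% of windows) or the TATA box letters (12.9%). Promoter entries were matched for 6 of the 10 members, and those of Fos, Jun, Atf3 and Ier3 were not used here. Fosb, which also varied widely between libraries, had a window that is not shown. It held 1 match to the TATA box letters and none of the other motifs. A match or its absence describes these letters only.

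Fosl1, the gene of the AP-1 subunit FRA-1, was the only one of the 8 that passed the threshold of the test across all genes (edgeR quasi-likelihood test, Benjamini-Hochberg adjusted p under 0.05). That is 1 of 8, against 13.0% of the 13709 genes tested, and 6.30% of genes were called higher and 6.74% lower. The median log2 fold change (UVB minus control) of the 8 was -0.05, and that of all genes tested was -0.0058. The groups did not overlap for 2 of the 8, Fosl1 and Jund, against 26.6% of all genes. Fosl1 (NCBI gene 25445) measured 9.15, 10.4, 7.69 and 8.63 CPM (read counts relative to library total, TMM-normalised) in controls a to d. In UVB a to c it measured 18.4, 11.7 and 18.0 CPM. Every UVB library lay above every control, with UVB b close to the highest control and UVB a and UVB c well above. On the log2 scale Fosl1 rose by 0.84 (SE 0.17, edgeR quasi-likelihood test, adjusted p = 0.0159), or 1.79-fold with a 95% interval of 1.37 to 2.34. Every UVB library was above every control in 12.8% of all genes tested. Without UVB c the log2 fold change was 0.75 and the call was lost (edgeR adjusted p = 0.0517). The counts of Fosl1 were fractional in all 7 libraries, so reads may have been divided among features in the counting, and its level is uncertain.

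**Figure D1:**
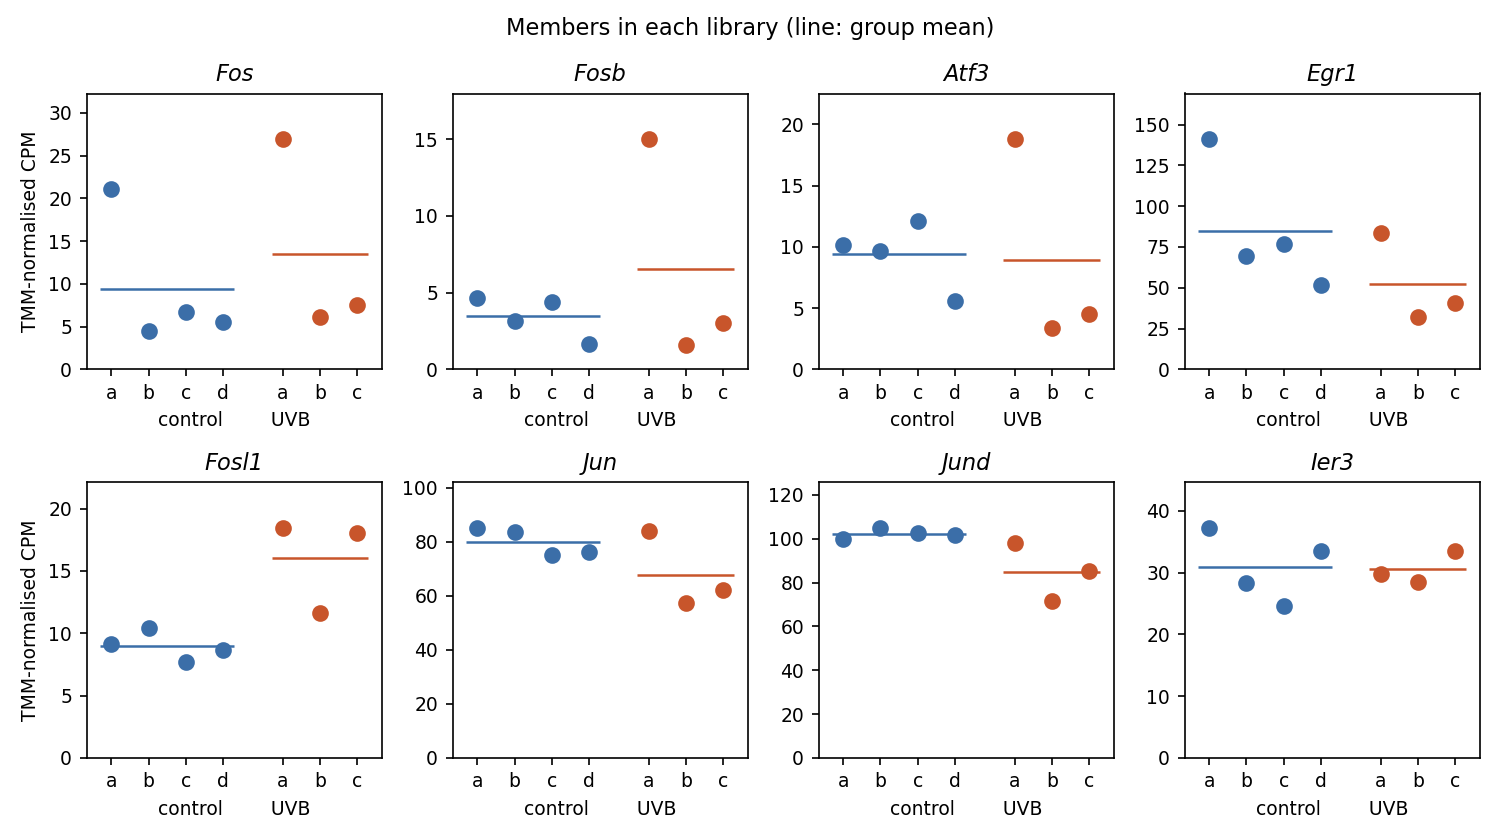
TMM-normalised CPM of the 8 members in each library, controls a to d in blue and UVB a to c in orange, with a line at each group mean; every axis starts at 0. Fosl1 is higher in all 3 UVB libraries than in any control, while Fos, Fosb and Atf3 are highest in UVB a; in UVB b and UVB c, Atf3 lies below every control.

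The other Fos genes did not pass the test, and both varied widely within the groups. Fos (NCBI gene 314322), the founding member of the family, measured 21.1, 4.43, 6.73 and 5.51 CPM in controls a to d and 26.9, 6.08 and 7.51 CPM in UVB a to c. Control a and UVB a stood high and the other 5 libraries lay between 4.43 and 7.51 CPM, so the groups overlapped. For Fos the fitted difference was 0.51 on the log2 scale (SE 0.70, edgeR adjusted p = 0.677), and its interval ran from 0.457-fold to 4.44-fold. Fosb (NCBI gene 100360880), a close relative of Fos, measured 4.67, 3.13, 4.38 and 1.67 CPM in controls and 14.98, 1.59 and 3.01 CPM after UVB. UVB a alone stood high, and UVB b and UVB c lay within or below the range of the controls. The difference for Fosb was 0.89 (SE 0.74, edgeR adjusted p = 0.465), close to that of Fosl1 in size but with an interval from 0.562-fold to 6.12-fold. Whether the changes of Fosb or Fos differ from that of Fosl1 was not tested. Without UVB a, the log2 fold changes of Fos and Fosb turned to -0.47 and -0.59, neither past the threshold (edgeR adjusted p = 0.692 and 0.418). Fosb overlaps a long noncoding RNA gene, LOC103691049, in GRCr8. The sources used here do not say whether counting used strand, so reads of the 2 genes cannot be told apart.

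Neither of the 2 Jun genes measured passed the test, though both were lower than every control in UVB b and UVB c. Jun (NCBI gene 24516), the main partner of Fos, measured 85.1, 83.5, 75.0 and 76.1 CPM in controls and 84.1, 57.3 and 62.0 CPM after UVB. UVB a lay within the controls, and UVB b and UVB c lay below all of them. Jun differed by -0.24 on the log2 scale (SE 0.13, edgeR adjusted p = 0.238). Jund (NCBI gene 24518), whose protein is the Jun family member usually present in resting cells, measured 99.9, 104.9, 102.6 and 101.7 CPM in controls and 97.98, 71.6 and 85.4 CPM after UVB. Here every UVB library lay below every control, as for 13.8% of all genes tested, with UVB a only just below. Jund differed by -0.27 (SE 0.094), and it did not pass after adjustment (unadjusted p = 0.0182, edgeR adjusted p = 0.0927). Without UVB a, both genes were called lower, Jun at -0.42 (edgeR adjusted p = 0.0208) and Jund at -0.38 (0.0274). Jun and Jund lay close together over the 7 libraries. The root mean square distance between their log2 CPM, each centred on its own mean, was 0.092, the smallest between any pair of the 8 members. This distance is not scaled for spread, so genes that vary little lie close in any case. Ier3 lay 0.264 from Jun and 0.2615 from Jund. Whether Jun and Jund vary together was not tested.

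Atf3 and Egr1, stress-induced factors that are not in the Fos and Jun families proper, were also not called. Atf3 (NCBI gene 25389) encodes a bZIP protein induced by many kinds of cell stress. It measured 10.2, 9.66, 12.1 and 5.56 CPM in controls and 18.8, 3.41 and 4.51 CPM after UVB. UVB a was above every control, and UVB b and UVB c were below every control. The fitted value for Atf3 was -0.097 (SE 0.59, edgeR adjusted p = 0.933), and without UVB a it was -1.25 and passed (edgeR adjusted p = 0.0454). Atf3 overlaps Garin4 in GRCr8. Egr1 (NCBI gene 24330), a zinc finger factor that is a common marker of serum response factor activity, measured 140.9, 69.3, 77.0 and 51.6 CPM in controls and 83.5, 31.9 and 40.5 CPM after UVB. Control a was the highest, UVB a lay within the controls, and UVB b and UVB c lay below all of them. Egr1 differed by -0.71 on the log2 scale (SE 0.43, edgeR adjusted p = 0.320), its interval running from 0.304-fold to 1.23-fold. This value moved to -1.22 without UVB a (edgeR adjusted p = 0.109) and to -0.35 without control a (0.577).

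Ier3, which encodes a small early response protein that acts on cell survival and kinase signalling, had the smallest difference of the 8. It (NCBI gene 294235) measured 37.2, 28.3, 24.5 and 33.6 CPM in controls and 29.7, 28.6 and 33.6 CPM after UVB. All UVB values lay inside the range of the controls. That difference was -0.012 (SE 0.14, edgeR adjusted p = 0.968), and the interval ran from 0.801-fold to 1.23-fold, so a change of the size seen for Fosl1 lay outside it.

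**Figure D2:**
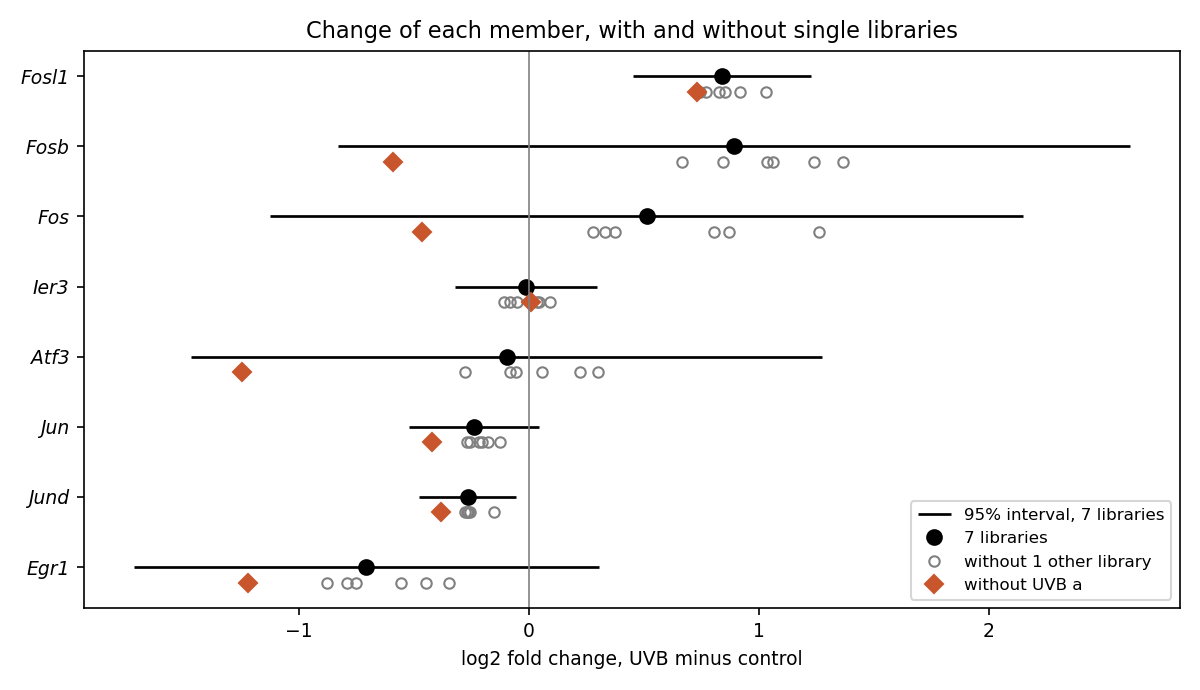
Log2 fold change (UVB minus control) of each member with its 95% interval from all 7 libraries (black), and the values with 1 library left out (grey circles; orange diamonds without UVB a). Fosl1 stays above 0 in every fit, while Fos and Fosb lie above 0 in every fit but the one without UVB a; Atf3, Jun, Jund and Egr1 reach their lowest value in that fit.

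UVB a thus stood apart from the other UVB libraries for several members, and leaving it out moved the count of called members more than leaving out any other single library. Counting the calls again without each library gave 1 call in 5 of the 7 fits. The exceptions were 0 calls without UVB c, where 8.47% of all genes were called, and 4 calls without UVB a, where 8.74% were. Those 4 were Fosl1 (log2 fold change 0.73, edgeR adjusted p = 0.0486), higher, and Jun, Jund and Atf3, lower. Leaving out both libraries with high Fos, control a and UVB a, was tried after seeing the data and gave 3 calls, with 13% of all genes called: Jun at -0.39 (edgeR adjusted p = 0.0212), Jund at -0.39 (0.0268) and Egr1 at -0.86 (0.0459). In that fit Fosl1 was at 0.74 and did not pass (0.0623). UVB a had the smallest library total. It also had the lowest sum of meibocyte (lipid gland cell) markers, 87268 CPM against 88221 to 114200 CPM, but Scd alone made up 71265 CPM of it, and other markers of the list, such as Awat2 and Far2, were lowest in UVB c. Its sum of fibroblast markers, most of it Col1a1, was the highest, at 2642 CPM against 1579 to 2535 CPM. The part of these values in the results was not tested.

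Spread between libraries of a group separated the 8 members into 2 sets. Fosb, Fos, Atf3 and Egr1 had SDs of 1.15, 1.06, 0.91 and 0.66 for log2 CPM, pooled within groups. These SDs stood at percentiles 99.6, 99.4, 99.1 and 97.2 of all genes tested, whose median was 0.146. Fosl1 (0.27), Ier3 (0.22), Jun (0.20) and Jund (0.15) were far steadier, at percentiles 76.5, 68.0, 63.9 and 49.7. Counting error alone would give an SD of 0.138 for Fosb, the scarcest member with 39 to 316 counts, and 0.0902 for Fos. The ratio of the highest to the lowest library was 9.44 for Fosb and 6.06 for Fos, against 1.47 for Jund. The median SD of the 8 members was 0.46 in log2 CPM and 0.44 on the log2(TPM + 1) scale.

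**Figure D3:**
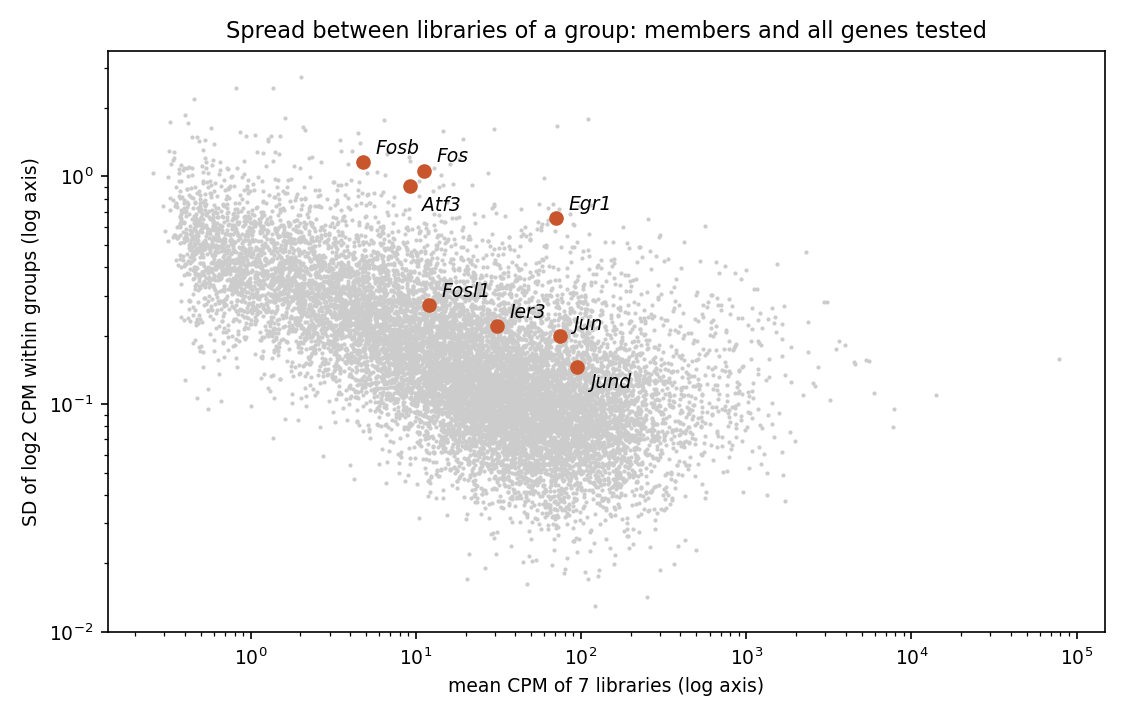
SD of log2 CPM within groups against mean CPM for all 13709 genes tested (grey) and the 8 members (orange); both axes are logarithmic. Fosb, Fos, Atf3 and Egr1 lie at the upper edge of the cloud at their level of expression, with SDs of 0.66 to 1.15, and the other 4 members lie inside it, at 0.15 to 0.27.

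The 4 variable genes did not share a single profile. Control a was high for Fos and Egr1, whose log2 CPM lay 1.24 and 1.15 above their means over the 7 libraries, but Fosb and Atf3 lay only 0.37 and 0.36 above theirs. UVB a was high for Fosb, Fos and Atf3 (2.03, 1.59 and 1.24 above), and less so for Egr1 (0.39 above). UVB b was the lowest of the 7 libraries for Fosb, Atf3 and Egr1, while Fos was lowest in control b. By root mean square distance of centred log2 CPM over the 7 libraries, the 5 genes nearest to Fos among 11966 with a mean count of at least 50 were Ccn1 (0.49), Matn4 (0.60), Fosb (0.60), Hbegf (0.62) and LOC100359539 (0.63). Ccn1, an immediate early gene of a matricellular protein, measured 23.1 CPM in control a and 34.3 CPM in UVB a, against 9.75 to 14.8 CPM in the other libraries. Hbegf, the gene of an EGF receptor ligand, was likewise highest in UVB a (16.6 CPM) and next in control a (12.4 CPM). None of these 5 genes passed the test. The 5 nearest to Fosl1 were Gpr176 (0.073), Cyth4 (0.087), Thbd (0.10), Dab2 (0.12) and Fam43a (0.12), and all of them were called higher, which follows from choosing them for the profile of a called gene. Distances are not scaled for spread, so those for Fos and Fosl1 are not compared. Thbd, which encodes the anticoagulant receptor thrombomodulin, measured 18.3 to 20.4 CPM in controls and 36.97, 21.91 and 35.02 CPM in UVB a to c, and Dab2, the gene of an endocytic adaptor, 17.6 to 22.2 CPM and 41.4, 24.7 and 43.2 CPM. As with Fosl1, UVB b was the lowest UVB library for both. Cyth4 lost its call in 15 of 21 alternatives, Thbd in 7 and Dab2 in 5 of 21, and Gpr176 in 6 of 19, while Fam43a kept its call in all 21.

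**Figure D4:**
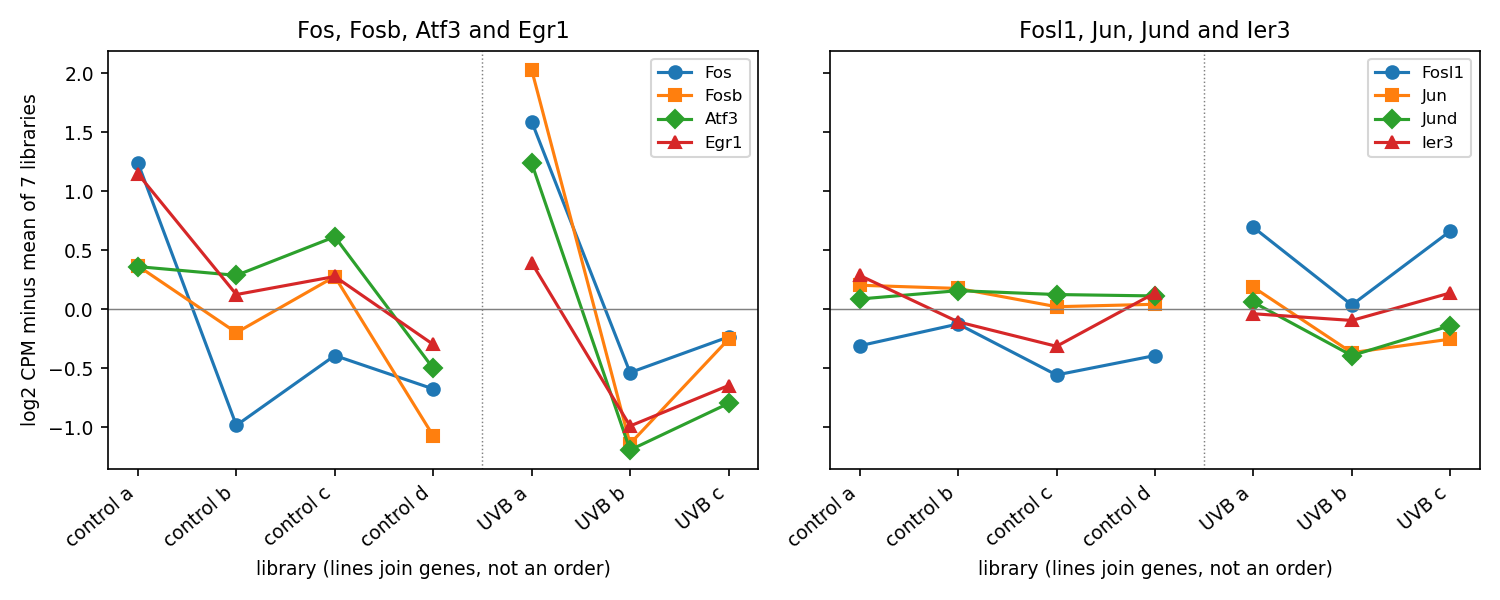
Log2 CPM of each member minus its mean over the 7 libraries, for the 4 variable genes (left) and the 4 steadier ones (right); lines only join the values of a gene within a group. Left, Fos and Egr1 stand high in control a and Fos, Fosb and Atf3 in UVB a. Right, Fosl1 is the gene with all UVB values above its controls, and Jun and Jund, which vary little, lie close together.

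Levels between genes were compared per length, in the deposited TPM, which takes gene length into account. In controls Jund was the most abundant member at 106.7 ± 3.13 TPM (SD, n = 4). Ier3 (52.3 ± 8.83 TPM) and Egr1 (45.1 ± 20.4 TPM) followed and did not differ beyond their spread, and Jun came next at 28.9 ± 1.58 TPM. Fos (10.4 ± 8.51 TPM) and Atf3 (8.58 ± 2.61 TPM) overlapped each other, Fosl1 stood at 4.16 ± 0.486 TPM and Fosb was the scarcest at 1.93 ± 0.644 TPM. After UVB the means were 89.2 ± 15.3 TPM for Jund and 7.49 ± 1.87 TPM for Fosl1 (SD, n = 3). The summed TPM of the 2 Jun genes exceeded that of the 3 Fos genes in every library, by 4.48-fold in control a and 10.1-fold to 12.1-fold in the other controls. After UVB the ratio was 2.86 in UVB a, 7.31 in UVB b and 6.14 in UVB c. Within the Jun sum the shares differed by less than their spread, Jund taking 78.7% ± 1.15 in controls (SD, n = 4) and 78.4% ± 1.44 after UVB (SD, n = 3). Within the Fos sum Fosl1 took 14.1% to 41.7% in controls and 18.4% to 46.0% after UVB, with the lowest share of each group in control a and UVB a, where Fos itself was high. Junb and Fosl2 are missing from these sums.

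Other immediate early genes were read from a list of 38, of which 32 were tested. In all 3 were called, against 13.0% of all genes tested. In it 1 gene was called higher and 2 lower, against 6.30% and 6.74% of all genes tested, and the median log2 fold change was -0.011 against -0.0058 for all genes. Egr2, a zinc finger relative of Egr1, fell from 97.4 to 114.5 CPM in the controls to 65.5, 60.7 and 77.0 CPM in UVB a to c (log2 fold change -0.65, SE 0.091, edgeR adjusted p = 0.00453). Sgk1, the gene of a serum- and glucocorticoid-induced kinase, fell from 92.9 to 116.7 CPM to 75.7, 64.4 and 74.1 CPM (-0.58, SE 0.092, adjusted p = 0.00678). Dusp6, which encodes a phosphatase of ERK and is a known readout of that pathway, rose from 10.9 to 17.2 CPM to 28.8, 20.8 and 26.8 CPM (0.90, SE 0.16, adjusted p = 0.0105). The groups did not overlap for any of these 3 genes. Over the whole list they did not overlap for 6 of the 32 tested, against 26.6% of all genes. The counts of Dusp6 were fractional in all 7 libraries. DESeq2 called 5 genes of this list, but it also called more of all 13709 genes, 2451 in place of 1787.

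Among 25 other bZIP genes, many of whose proteins can pair with AP-1 subunits, 22 were tested, and 3 were called lower, against 6.74% of all genes. Batf2 fell but was scarce, at 1.03 to 2.17 CPM in controls and 0.231 to 0.503 CPM after UVB (log2 fold change -2.13, SE 0.40, edgeR adjusted p = 0.0111). Ddit3, the gene of the stress factor CHOP, fell from 12.9 to 20.4 CPM to 10.1 to 10.6 CPM (-0.66, SE 0.16, adjusted p = 0.0276), and it overlaps Mars1 in GRCr8. Bach2 fell by 0.83 on the log2 scale (SE 0.22, adjusted p = 0.0372). Ddit3 lost its call in 7 and Bach2 in 8 of 21 alternatives. The median of the list was 0.0017. Of 6 macrophage markers Cd163 and Mrc1 were called higher, against 6.30% of all genes. The other 4 did not pass: C1qa (log2 fold change 0.85), Adgre1 (0.11), Csf1r (-0.0093) and Cd68 (-0.41). The sum of the 6 ran from 58.5 to 108.4 CPM in controls and from 82.1 to 157.9 CPM after UVB. The part of these cells in the bZIP values was not tested. A change in the number of cells of a type and a change in RNA per cell cannot be told apart in whole glands.

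Genes upstream of AP-1, the mitogen-activated protein kinases, their activators and the serum response factor group, showed small changes. Of 28 tested from a list of 32, 3 were called higher and 2 lower, against 6.30% and 6.74% of all genes tested, and the median log2 fold change was -0.06. Rps6ka4, the gene of a kinase of histones and CREB downstream of ERK and p38, rose from 70.03 to 78.93 CPM to 100.2 to 112.0 CPM (0.51, SE 0.065, edgeR adjusted p = 0.00348). Rps6ka5, the gene of the related kinase, did not pass (-0.14, SE 0.15, adjusted p = 0.582). Rps6ka1, an ERK-activated ribosomal S6 kinase gene, rose by 0.31 (SE 0.062, adjusted p = 0.0139) and Elk3, an ETS partner of serum response factor, by 0.45 (SE 0.10, adjusted p = 0.0245). Mapk3, which encodes ERK1, fell by 0.27 (SE 0.061, adjusted p = 0.0214) and Map3k1, a kinase of the JNK cascade, by 0.32 (SE 0.088, adjusted p = 0.0429). Mapk3 lost its call in 5, Elk3 in 7 and Map3k1 in 13 of 21 alternatives. The counts of Mapk3 were fractional in all 7 libraries, and Elk3 overlaps Cdk17 in GRCr8. Srf itself was at 73.9 ± 5.80 CPM in controls (SD, n = 4) and 77.7 ± 9.47 CPM after UVB (SD, n = 3; edgeR adjusted p = 0.650).

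Reported targets of AP-1 were the companion list with the most calls. Of 27 tested from a list of 30, 15 were called higher and 0 lower, against 6.30% of all genes called higher, and the median log2 fold change was 0.78. The list was put together with earlier results of these data known, and several of its genes had been seen to rise, so its count is a description and no independent evidence on AP-1. Sprr1b, a cornified envelope precursor of wounded epidermis, measured 0.940 to 2.57 CPM in controls and 22.2, 21.6 and 30.7 CPM in UVB a to c. Timp1, an inhibitor of matrix proteases, measured 4.59 to 5.88 CPM in controls and 75.7, 26.6 and 38.7 CPM after UVB (log2 fold change 3.18, SE 0.35, edgeR adjusted p = 0.00382). Ptgs2, the inducible prostaglandin synthase gene COX-2, measured 0.517 to 0.684 CPM in controls and 8.77, 2.98 and 2.93 CPM after UVB (3.00, SE 0.44, adjusted p = 0.00594). The protease gene Mmp9 (2.77, SE 0.40, adjusted p = 0.00498), the monocyte chemokine gene Ccl2 and the integrin gene Itga5 were also higher in all 3 UVB libraries than in any control. Timp1 overlaps Syn1 in GRCr8. Not every target passed: Hbegf, Plau (0.064, SE 0.16, adjusted p = 0.824) and Hmox1 (-0.061, SE 0.25, adjusted p = 0.902) did not pass, and Ivl, the involucrin gene, lay lower in every UVB library without passing (-1.32, SE 0.46, adjusted p = 0.108). Without control c, 9 genes of this list were called, and the share of all genes called was also lower in that fit, at 6.27% against 13.0%.

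**Figure D5:**
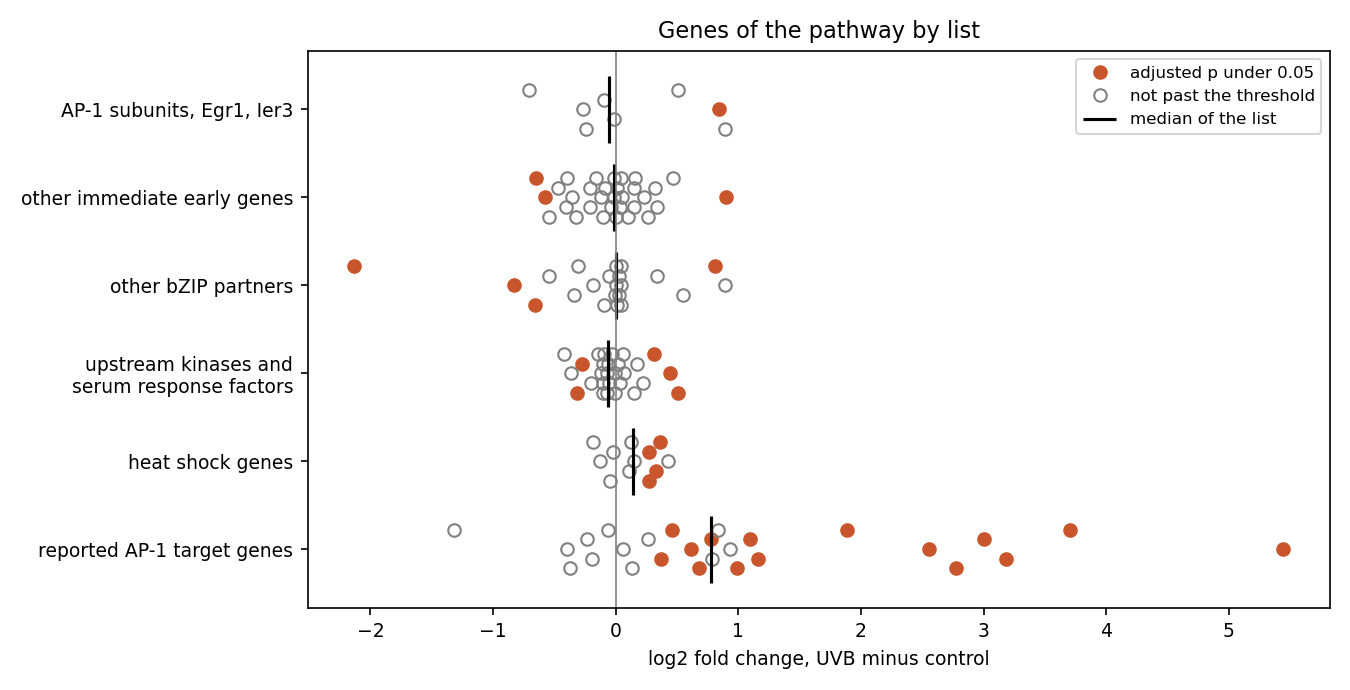
Log2 fold change (UVB minus control) of each tested gene by list; filled points passed an adjusted p of 0.05 in edgeR and black bars mark list medians. The medians of the upper 4 lists lie between -0.06 and 0.0017 and that of the reported AP-1 targets at 0.78; the rightmost point is Il6, whose controls held at most 2 counts, so its fitted value is no measure of size (82, 15 and 12 counts in UVB a to c).

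Markers of other cells were read beside these results, since AP-1 genes are expressed in most cell types. Among fibroblast markers Lum, Dcn, Pdgfra and Pdgfrb were called higher (4 of 5 tested), against 6.30% of all genes. Col1a1 was lower without passing (log2 fold change -0.48, SE 0.26, edgeR adjusted p = 0.260). The fibroblast sum, which Col1a1 dominates, overlapped between the groups. Of 5 endothelial markers tested, Vwf, Tie1 and Cdh5 were called higher. Kdr did not pass, nor did Emcn, which was lower (-0.20, SE 0.11, edgeR adjusted p = 0.250). The sum of the 5 was 94.7 to 114.3 CPM in controls and 134.0 to 153.0 CPM after UVB, without overlap. Of all single genes tested 6.30% were called higher, and every UVB library lay above every control in 12.8%. Neutrophil markers (2 of 3 tested called higher) and mast cell markers (1 of 4) also had sums above every control in all UVB libraries. S100a8 and S100a9, which epidermis also expresses, made up most of the neutrophil sum. Kit, which did not pass, made up most of the mast cell sum, at 38.3 of 42.85 CPM in control a and 56.7 of 62.0 CPM in UVB a. Cma1 and Tpsb2 overlapped between the groups. The sum of 3 basal and wound keratinocyte markers lay above every control in all UVB libraries only narrowly, with 12050 CPM in control b and 12079 CPM in UVB b. Of these Krt14 was called higher, while Krt5 (log2 fold change -0.021) and Krt17 (-0.043) did not pass. Sums for meibocyte, macrophage, skeletal muscle, cornifying epithelium and T cell markers overlapped, though single genes of these lists were called. Of 7 cornifying epithelium markers tested, Tgm3 was called higher (log2 fold change 1.35) and Krt77 lower (-5.90). Actn3 was called lower (-1.77) among 6 muscle markers tested. Cd8a, scarce in controls, was called higher (2.48) among 3 T cell markers tested. Among 8 meibocyte markers Awat2 and Plin2 were called lower and Fa2h higher, against 6.74% and 6.30% of all genes tested. The meibocyte sum was 87268 to 114200 CPM, most of it Scd. Awat2, though called lower, still measured 5453 to 5959 CPM in the UVB libraries, against 8471 to 9552 CPM in controls. The part of these cells in the change of Fosl1 was not tested.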

How the data were processed

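RNA sequencing of meibomian gland was analysed in 4 control and 3 UVB libraries. The authors deposited expected counts, which are estimates and not normalised (12.5% were fractional), and TPM, which the authors scaled by length and library. Per the submitters' processing notes, FastQC, Trimmomatic, DRAGEN, Picard and build rn7 were used, without stated roles; the counting program, annotation and strand handling are not given in the sources used here. Commas inside gene names moved cells in 2280 lines of the tables, so values were taken by counting back from the last cell, and 5 lines lacking a value were dropped. As a check, counts were divided by TPM for 11951 well-covered genes: the ratio was off by over 1.5 times for 10, none a member. Column names give the group, the tags WT and MG and a number for each library, but not the sample title. Libraries therefore carry letters, which pair nothing.

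Expected counts were rounded, since the planned design assumed whole counts. The quasi-likelihood test of edgeR (version 4.0.16, R 4.3.3) used TMM factors, robust estimation and the filterByExpr filter, which left 13709 genes. P-values are two-sided, Benjamini-Hochberg adjusted over all 13709 genes, with 0.05 as threshold. SE is the absolute log2 fold change over the root of F, and intervals are 95%. Log2 CPM used a prior count of 2. The fits were tested on simulated counts. Named genes (1 is not reported here) were all members, up to 6 called genes of each list by smallest p, and the 5 nearest to Fos and to Fosl1. Srf, Plau, Hmox1, Ivl, Il6, Hspa1b, Nr4a1, Per1 and the cell markers were named after their values were seen. Members and lists were chosen with earlier results of these data known. Other settings tried were DESeq2 (1.42.0), limma-voom (3.58.1), 3 other scalings, 2 other filters, no robust estimation, limma on log2(TPM + 1) or log2(TPM + 0.1), a threshold of 0.01, unrounded counts, and leaving out libraries.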

Additional observations from a re-analysis of the deposited data

Results flagged for a closer look

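Among 39 genes examined, the controls of 4 held 1 library well away from the other 3. Chance alone gives about 1 in 20 such groups, or 1.95 of 39, but the genes are not independent: Ccn1 was chosen for a profile like that of Fos, so its value adds nothing to the count. For Fos that library was control a, with 21.1 CPM beside 4.43 to 6.73 CPM, a distance of 0.862 of the whole range. Control a also stood off for Ccn1, at 23.1 CPM beside 13.2 to 14.8 CPM (0.836 of the range). For Mapk3 it was control d, at 152.1 CPM beside 144.4 to 144.9 CPM (0.940). For Itga5 it was control c, at 23.2 CPM beside 18.9 to 19.5 CPM (0.875). Without control a, edgeR gave a log2 fold change of 1.26 for Fos (adjusted p = 0.221) and 0.45 for Ccn1 (adjusted p = 0.553). Groups of 3 were not examined in this way, so nothing is said of UVB a by this measure.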

How the results depend on the processing

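No paired analysis was possible because column names link libraries to a group only, with no number shared across groups. Over 21 alternatives the 39 genes examined gave 811 values, of which 681 kept direction and side of the threshold, 100 lost the call, 12 gained it and 18 changed sign. The causes were not tested, except that a threshold of 0.01 by construction gives fewer calls: 383 genes in place of 1787 (223 higher, 160 lower), 0 members, 1 bZIP gene, 1 upstream gene, 7 targets and 1 heat shock gene. DESeq2 called 2451 genes and 5 other immediate early genes. Limma on log2(TPM + 1) over every gene above 0 called 571 genes lower, 3 upstream genes and 2 heat shock genes. Leaving out 1 library gave 851 (without control c) to 1898 (without control a) genes called in UVB against control. The number of genes called higher was 421 to 927 and that of genes called lower 430 to 971. By list it gave 0 to 4 members, 2 to 5 bZIP genes, 2 to 6 upstream genes, 9 to 15 targets and 1 to 5 heat shock genes. In those fits the log2 fold change ran from -0.47 to 1.26 for Fos, -0.59 to 1.37 for Fosb, -1.25 to 0.30 for Atf3, -0.11 to 0.092 for Ier3, -0.47 to 0.56 for Ccn1 and -0.053 to 0.52 for Hbegf. The log2 fold change of Ier3 was 0.016 in limma-voom, 0.0064 on both log2(TPM + 1) scales and 0.0067 on log2(TPM + 0.1). Without control a and UVB a together, chosen after seeing the data, 3 members and 2 bZIP genes were called, with Fosb at -0.42, Ier3 at 0.11 and Ccn1 at -0.25. The share of Fosl1 in the Fos sum was 44.9% in controls and 51.4% after UVB by CPM, against 29.6% and 35.3% by TPM. Depth limits Fosb most, with as few as 39 counts in a library.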

Other observations

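Heat shock genes, whose products refold damaged proteins, were measured beside the AP-1 genes. Of 12 tested from a list of 13, 4 were called higher and 0 lower, against 6.30% of all genes called higher, and the median log2 fold change was 0.14. Dnaja1, a cochaperone gene, measured 63.99 to 69.88 CPM in controls and 87.26, 85.24 and 85.72 CPM in UVB a to c, a rise of 0.36 on the log2 scale (SE 0.055, edgeR adjusted p = 0.00598). Hspd1 (0.33, SE 0.080, adjusted p = 0.0280), Dnajb1 (0.27, SE 0.067, adjusted p = 0.0299) and Hspe1 (0.28, SE 0.075, adjusted p = 0.0402) also passed, and each of these 3 lost its call in 7 of 21 alternatives. Hspd1 and Hspe1 overlap each other in GRCr8. Hspa1b, the stress-inducible HSP70 gene, did not pass (-0.18, SE 0.071, adjusted p = 0.123), and its counts were fractional in all 7 libraries.

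Among the other immediate early genes, Arc, Ccn1, Nr4a1, Nr4a3 and Per1 had a within-group SD of log2 CPM above 0.5, as did 6.69% of all genes tested. Nr4a1, an orphan nuclear receptor gene, was highest in UVB a at 54.2 CPM and lowest in UVB c at 14.5 CPM. Per1, a clock gene that is also an immediate early gene, ran from 34.3 CPM in control d to 99.4 CPM in control c, and from 31.7 CPM in UVB a to 56.8 CPM in UVB c, so its order of libraries was not that of Fos. Of the 32 genes, 11 were highest in UVB a and 10 in control a. The same was not counted over all genes, so these counts have no background to be read against.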
